A study of Rattus norvegicus with 35 samples.

Results

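Fatty acids dissolve poorly in water, so cells take them up and carry them with dedicated proteins. Cd36 is a membrane glycoprotein that helps long-chain fatty acids to cross the plasma membrane and also acts as a scavenger receptor. It is known from adipocytes, muscle, macrophages and the endothelium of small vessels, and in the mammary gland it is a component of the membrane around milk fat globules. The fatty acid binding proteins (FABPs) are small cytosolic carriers that hold a fatty acid inside a barrel and deliver it to enzymes, lipid droplets or nuclear receptors. Fabp3 is the heart and muscle form, which the mammary epithelium also makes. Fabp4 is the adipocyte form, and Fabp5 is the epidermal form, found in many epithelia and in macrophages. Fabp4 and Cd36 are known target genes of the nuclear receptor PPAR gamma.

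Fabp3, Fabp4, Fabp5 and Cd36 were followed over 35 rat samples. The members were all probe sets that the platform annotation assigns to these 4 genes alone. This gave 1 probe set per gene (1367660_at for Fabp3, 1368271_a_at for Fabp4, 1370281_at for Fabp5 and 1367689_a_at for Cd36), 4 of the 15866 that are no controls, and 4 of 10411 genes with a symbol. A probe set is a group of short probes for a transcript, read as 1 signal. The probe set 1386901_at is annotated to Cd36 and to Cd36l1 together, so it was kept apart and named for neither gene.

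The samples were 11 normal rat mammary glands and 24 mammary tumours, each hybridised as total RNA to an array of the RAE230A design. The labels give NMU as the model, short for N-methyl-N-nitrosourea, an alkylating agent that induces mammary tumours in rats. They name no strain, age, dose or time for either group, and call the tumour tissue frozen. Of the normal glands, 8 have titles that begin with NewN, and the other 3 are titled X27.1N, X28.1N and Young. Nothing in the labels says that samples came from separate animals, so the p-values measure the spread between these samples, which may in part be technical. Each sample is a piece of bulk tissue, in which fewer cells of a type and less RNA per cell cannot be told apart.

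Some measures of the arrays moved with the groups. The array median of the deposited signal lay between 163 and 172 in the normal glands and between 158 and 176 in the tumours. The 10th percentile ran from 33.4 to 42.3 in the normal glands and from 39.1 to 48.3 in the tumours, and the 90th percentile from 639 to 763 and from 491 to 678. For the Gapdh controls the 3' signal divided by the 5' signal, a measure of RNA integrity, had a median of 1.10 in the normal glands (0.963 to 1.39) and 1.01 in the tumours (0.884 to 1.23). The same ratio of the beta-actin controls had a median of 1.335 in the normal glands (1.14 to 1.48) and 1.20 in the tumours (1.09 to 1.65). The part of these measures in the results was not tested. The tumour titled X22L stood apart, with the lowest summed signal of the luminal epithelial markers (1450, against 5199 to 12888 in the normal glands) and the highest of the macrophage markers (13380). Results printed below whose call changed without it are given with and without it. Not every relation to a marker list that was called only without X22L is named. Values below 41.6, the 10th percentile of all signals, were set to that floor before log2 was taken, and limma p-values, adjusted over all probe sets by Benjamini-Hochberg, were called when under 0.05.

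RefSeq promoter sequences were matched for 2 of the 4 members, Fabp3 and Cd36, in build GRCr8, and both are shown to place the genes. Each window holds the 250 bases before a transcript start on the plus strand, with matches to the searched motifs in capitals. The Fabp3 window is chr5:147935875-147936124 and the Cd36 window is chr4:18246332-18246581.
Fabp3: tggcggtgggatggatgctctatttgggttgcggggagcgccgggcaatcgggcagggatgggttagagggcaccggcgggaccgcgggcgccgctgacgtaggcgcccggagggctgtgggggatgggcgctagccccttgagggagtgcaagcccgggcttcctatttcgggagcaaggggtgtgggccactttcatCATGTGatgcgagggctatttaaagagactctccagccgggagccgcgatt
Cd36: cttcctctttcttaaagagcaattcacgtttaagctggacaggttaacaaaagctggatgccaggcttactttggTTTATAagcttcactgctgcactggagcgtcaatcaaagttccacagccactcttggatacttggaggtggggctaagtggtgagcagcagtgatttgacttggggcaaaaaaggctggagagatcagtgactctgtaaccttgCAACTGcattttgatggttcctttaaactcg
The GC content was 65.6% for Fabp3 and 45.6% for Cd36, against a median of 52% over 27457 rat windows of the same length. The E box CANNTG occurred once in each window, 51 bases before the start in Fabp3 and 31 bases before it in Cd36, and 65.2% of all windows hold it. The TATA box letters TATAAA occurred once in Cd36, on the opposite strand and 175 bases before the start, and in 13.1% of all windows. On neither strand did either window hold the nuclear receptor site AGGTCA (13.7% of windows), the direct repeat AGGTCANAGGTCA that contains it (0.0546%), the GC box GGGCGG (32.4%), CCAAT (34.3%) or TTGCNNAA (9.2%). A match is a description of these letters in these windows.

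The comparison asked how the carriers and the membrane receptor differ between tumours and normal glands. Fabp4 and Cd36 were lower in all 24 tumours than in any normal gland, Fabp3 was higher, and Fabp5 was not called. Of all probe sets, 58.2% were called in that comparison, 33% higher and 25.2% lower in tumours, so the calls alone set no member apart. The sizes were less common. Every tumour lay below every normal gland for 2.02% of probe sets, and 0.221% were also at least 16-fold lower, as Fabp4 and Cd36 were. At least 22 of 24 tumours lay above every normal gland for 2.12% of probe sets, Fabp3 among them, and 0.353% were called and at least 3-fold higher, as Fabp3 was. The cut-offs of 22 tumours, 16-fold and 3-fold lie at or below the members' own values, so these shares only describe where the members stand.

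**Figure D1:**
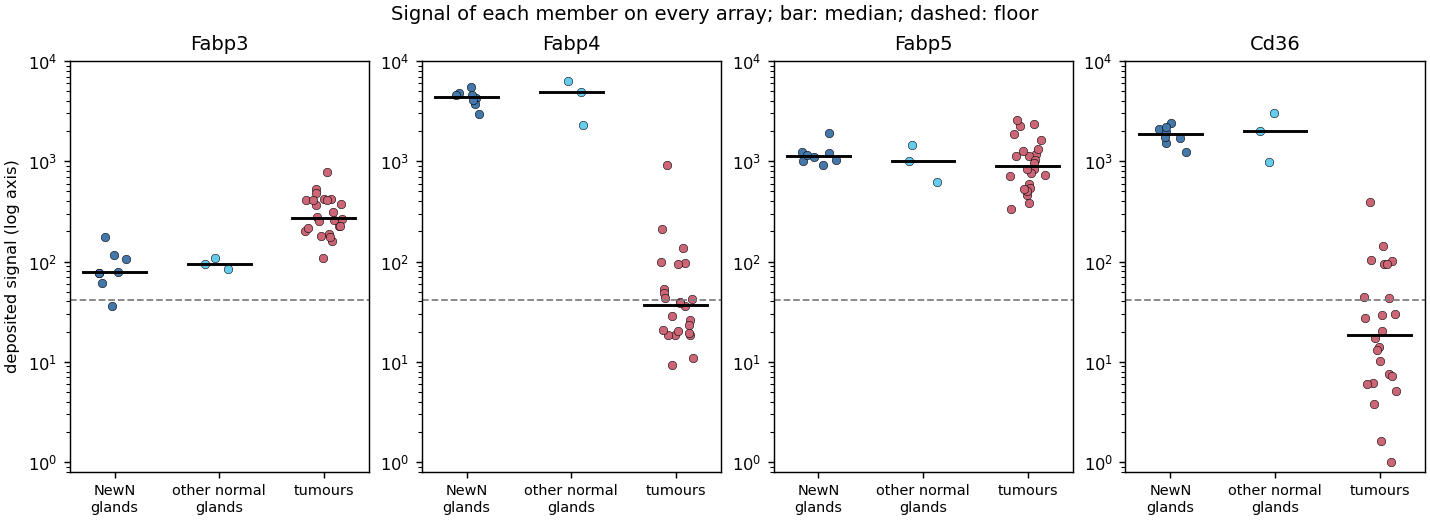
Deposited signal (log axis) of Fabp3, Fabp4, Fabp5 and Cd36 on every array, with 1 point per array for the 8 NewN glands, the 3 other normal glands and the 24 tumours, the median as a bar and the floor of 41.6 as a dashed line. Fabp4 and Cd36 lie lower in all 24 tumours than in any normal gland, Fabp3 lies higher in 22, and the groups overlap for Fabp5.

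Cd36, the receptor of membrane uptake, had a signal from 986 (X27.1N) to 3047 (X28.1N) in the normal glands, with a median of 1980 and a mean of 1908 ± 567 (SD, n = 11). In the tumours it ran from 1 (X13), the lowest value in the deposited table, to 390 (X15), with a median of 18.6. The groups did not overlap, and 16 of the 24 tumours were at or below the floor. The 8 above it were X15 at 390, X25L at 144, X19 at 105, X10 at 102, X22L at 95.1, X28 at 93.8, X29.1 at 44.5 and X11 at 43.2. On the floored scale Cd36 fell by a log2 change of -5.03 (SE 0.26, 95% interval -5.55 to -4.52, limma adjusted p = 2.17e-18), which is 32.8-fold lower. Because most tumours were at the floor, this size depends on where the floor was set.

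The probe set shared by Cd36 and Cd36l1 was brighter, and no array had it at the floor. Its signal ran from 1961 (X27.1N) to 6096 (X28.1N) in the normal glands and from 54.4 (X29.2) to 1274 (X15) in the tumours, with medians of 3433 and 114. It fell in the tumours by a log2 change of -4.60 (SE 0.34, limma adjusted p = 1.17e-13), with no overlap between the groups. The 6 brightest tumours were shared by both probe sets, namely X10, X15, X19, X22L, X25L and X28. The annotation lists both genes for it, and its probe sequences were not examined.

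Fabp4, the adipocyte carrier, had the brightest signals of the members' probe sets in the normal glands, though signals of different probe sets are not levels that can be set against each other. It ran from 2291 (X27.1N) to 6273 (X28.1N), with a median of 4556 and a mean of 4363 ± 1117 (SD, n = 11). In the tumours it ran from 9.34 (X18) to 929 (X15), with a median of 37.3, and 14 tumours were at or below the floor. After X15, the tumours above the floor were X10 at 212, X11 at 137, X4 at 99.5, X25L at 96.8, X25R at 94.0, X20 at 52.7, X21 at 49.1, X27 at 43.4 and X26 at 42.4. Even X15, the tumour with the highest signal, was below X27.1N, the normal gland with the lowest. The floored log2 change was -6.13 (SE 0.32, 95% interval -6.78 to -5.48, limma adjusted p = 5.3e-18), 69.9-fold lower.

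Fabp3, the muscle and mammary carrier, went the other way. Its signal was low in the normal glands, from 36.0 (NewN6) to 175 (NewN2), with a median of 84.7 and a mean of 92.3 ± 35.6 (SD, n = 11), and NewN6 alone was at the floor. In the tumours it ran from 110 (X22L) to 775 (X6), with a median of 273 and a mean of 319 ± 149 (SD, n = 24). Of the 24 tumours, 22 lay above every normal gland, and X22L and X26 (161) lay within the range of the normal glands. X29.1 at 175.3 was just above NewN2 at 174.9. Fabp3 rose by a log2 change of 1.73 (SE 0.22, 95% interval 1.29 to 2.17, limma adjusted p = 2.93e-08), a fold of 3.32 with an interval of 2.45 to 4.50. Without X22L the log2 change was 1.79.

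Markers of the cell types known to make Fabp3 were read beside it. Of 13 skeletal muscle genes measured, 12 fell in the tumours and 0 rose, and their summed signal was 1287 to 2199 in the tumours against 1628 (NewN6) to 25857 (NewN2) in the normal glands, with Myh4 and Tnni2 at the floor in all tumours. The glands with the lowest and the highest muscle sum were also those with the lowest and the highest Fabp3. Of 8 slow and heart muscle genes, 1 rose (Myl2, 0.31, SE 0.11) and 7 were not called, with sums of 341 to 810 in the normal glands and 419 to 748 in the tumours. Of 14 luminal epithelial genes, 9 rose and 0 fell, with sums of 5199 to 12888 in the normal glands and 1450 (X22L) to 30447 (X32) in the tumours. Their part in the Fabp3 result was not tested.

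Fabp5, the epidermal carrier, did not pass the test. Its signal ran from 616 (X28.1N) to 1936 (NewN4) in the normal glands, with a median of 1116 and a mean of 1154 ± 333 (SD, n = 11). In the tumours it ran from 332 (X14) to 2607 (X10), with a median of 907 and a mean of 1083 ± 641 (SD, n = 24). The tumours lay on both sides of the normal glands, with 3 above all of them (X10 at 2607, X20 at 2362 and X2 at 2230), 7 below all of them and 14 within their range. The highest tumour was 7.85-fold above the lowest, and the highest gland 3.14-fold above the lowest. The log2 change was -0.27 (SE 0.25, 95% interval -0.78 to 0.25, limma adjusted p = 0.378), so the interval of the fold runs from 0.581 to 1.19.

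**Figure D2:**
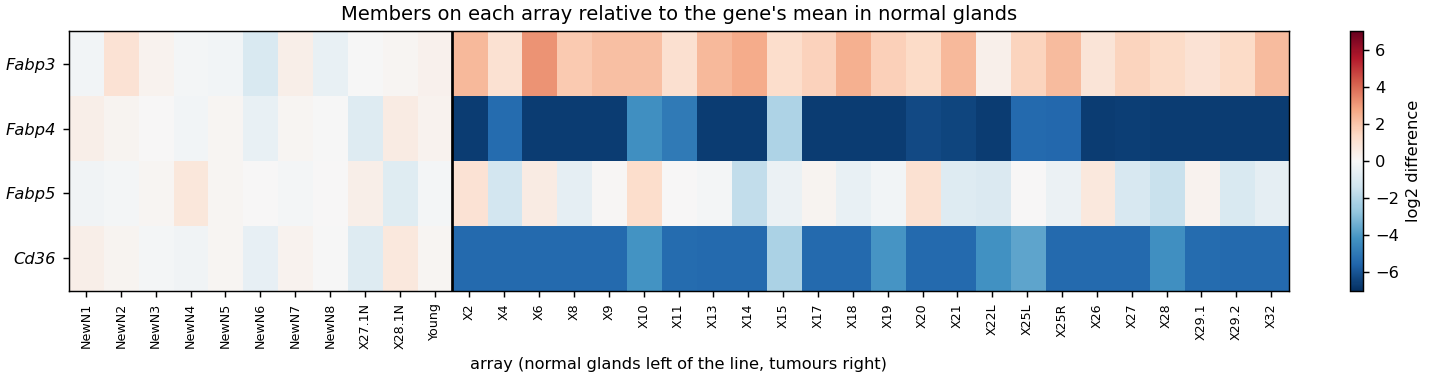
Log2 signal of each member on each of the 35 arrays, as the difference from that gene's mean over the 11 normal glands, with values below the floor set to it. Fabp4 and Cd36 are blue in all 24 tumours and palest in X15, Fabp3 is red or near white, and Fabp5 takes both colours.

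The changes of the members also differed from each other when they were compared within each array. All 6 pairs passed, by two-sided permutation of the array labels with 100000 permutations, adjusted over the 6 pairs. The rise of Fabp3 exceeded the change of Fabp4 by 7.86 on the log2 scale (SE 0.42), that of Cd36 by 6.77 (SE 0.38) and that of Fabp5 by 1.999 (SE 0.34), each with an adjusted p of 1.2e-05 from the smallest p the permutations can give, 1e-05. The change of Fabp4 minus that of Fabp5 was -5.86 (SE 0.41), and that of Fabp5 minus that of Cd36 was 4.77 (SE 0.39), each with a permutation adjusted p of 1.2e-05. Fabp3 stood higher relative to Fabp5 in 19 of the 24 tumours than in any normal gland. On the floored scale the change of Fabp4 minus that of Cd36 was -1.09 (SE 0.23, permutation adjusted p = 5e-05), in 19 tumours below every normal gland. Only 4 tumours (X10, X11, X15 and X25L) had both genes above the floor, and 10 had both at it. In those 10 the size reflects how far each gene stood above the floor in the normal glands. Where 1 gene was at the floor, the floor also limits the difference. The test therefore does not show that Fabp4 fell further than Cd36. With X27.1N and X28.1N as the only normal glands this difference did not pass (permutation adjusted p = 0.0738).

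Among the normal glands, Fabp4 and Cd36 followed nearly the same order. Both were lowest in X27.1N, next lowest in NewN6 (2959 for Fabp4 and 1247 for Cd36) and highest in X28.1N. Over the 11 glands their Pearson r was 0.98 (permutation p = 1e-05, adjusted over 6 pairs 6e-05) and Spearman rho 0.95 (permutation adjusted p = 0.00012). Without the 2 glands farthest from the median Fabp4, r was 0.96, and in the 8 NewN glands alone it was 0.97 (exact permutation adjusted p = 0.00104). The summed signal of 9 adipocyte genes was lowest in the same glands, at 6739 in X27.1N and 8791 in NewN6, and highest in NewN1 at 20094, where Fabp4 was 5574. Its part in the relation was not tested.

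Fabp5 ran against both in the normal glands. It was highest in NewN4 (1936) and X27.1N (1451) and lowest in X28.1N (616), the gland with the most Fabp4 and Cd36 signal. Fabp5 and Cd36 had an r of -0.74 (permutation p = 0.0112, adjusted p = 0.0337) and a rho of -0.85 (permutation adjusted p = 0.00396), with -0.80 without the 2 glands farthest from the median. The Pearson relation rests on few glands. It was -0.61 without X28.1N (permutation adjusted p = 0.187), it also failed without NewN1, NewN2, NewN7 or X27.1N (adjusted p = 0.0702, 0.0527, 0.0542 and 0.0571), and in the 8 NewN glands r was -0.54 (exact permutation adjusted p = 0.243). Fabp4 and Fabp5 had an r of -0.68, which did not pass (permutation p = 0.0257, adjusted p = 0.0514), and a rho of -0.83, which did (permutation adjusted p = 0.005). Without NewN4 that r was -0.77 and passed (permutation adjusted p = 0.0269). Fabp3 had an r of 0.42 with Fabp4, 0.42 with Cd36 and -0.19 with Fabp5, and none passed.

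No member was called between the NewN glands and the 3 other normal glands, in a comparison that called 10.7% of probe sets. The differences were -0.18 for Fabp3 (SE 0.41), 0.04 for Fabp4 (SE 0.61), 0.28 for Fabp5 (SE 0.48) and 0.01 for Cd36 (SE 0.48) on the log2 scale, with limma adjusted p-values from 0.797 to 1. With 3 glands on one side the intervals are wide, such as -0.69 to 1.25 for Fabp5, and they do not show that the glands are alike.

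Within the tumours, Fabp4 and Cd36 were above the floor in samples that only partly coincided. Both were above the floor in 4 tumours (X10, X11, X15 and X25L), Fabp4 alone in 6, Cd36 alone in 4 and neither in 10. Their r over the 24 tumours was 0.71 (permutation p = 0.00313, adjusted over 6 pairs 0.0188), but rho was 0.32 (permutation adjusted p = 0.271). Without the 2 tumours farthest from the median r was 0.12, and without X15 alone it was 0.32 (permutation adjusted p = 0.481), so the relation rests on those tumours. It also missed the threshold without X10, at 0.69 (permutation adjusted p = 0.0679). Of the other pairs, Fabp3 and Cd36 had an r of -0.31 and a rho of -0.44 (permutation p = 0.0303, adjusted p = 0.182), and the remaining 4 had an r between -0.19 and 0.13. None passed.

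**Figure D3:**
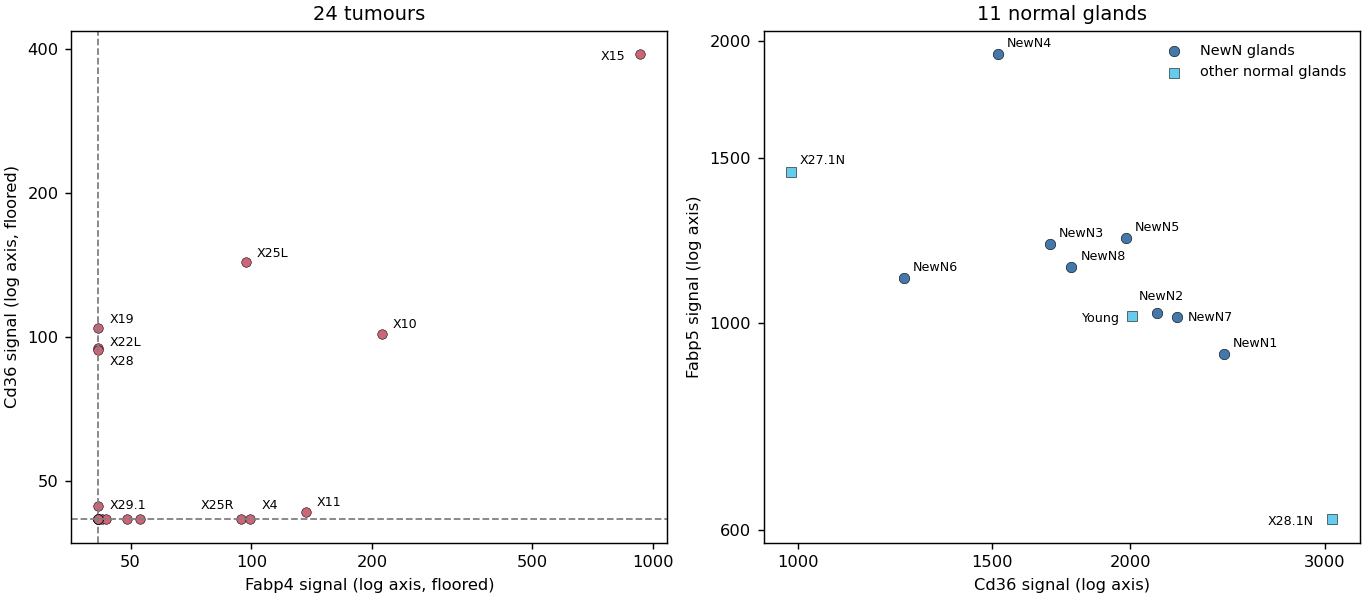
Left, Cd36 against Fabp4 signal in the 24 tumours, both on log axes and raised to the floor of 41.6 (dashed lines). Right, Fabp5 against Cd36 signal in the 11 normal glands on log axes. In the tumours X15 lies apart at the top right and 10 tumours share the lower left corner, and in the normal glands X28.1N holds the lowest Fabp5 and the highest Cd36.

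The members were next set beside 6 marker scores over the 24 tumours, for adipocyte, endothelium, macrophage, luminal epithelium, milk and cell division. No score was made for the muscle and squamous lists. A score is the mean of a list's genes after each was standardized over the tumours, and the p-values of the 24 relations (4 members and 6 scores) were adjusted together. Cd36 was at or below the floor in 16 of the 24 tumours and Fabp4 in 14, so most of their points are ties in these relations. For Cd36, the endothelium score had an r of 0.75 (permutation p = 3e-05, adjusted p = 0.00072) and a rho of 0.62 (permutation adjusted p = 0.0319), with an r of 0.65 without the 2 tumours farthest from the median. It kept an r of 0.69 without X15 and 0.74 without X22L. Cd36 also passed with the macrophage score by r (0.56, permutation p = 0.00689, adjusted p = 0.0413) and not by rho (0.49, permutation adjusted p = 0.12). Without the 2 farthest tumours that r was 0.43, and without X15 it was 0.46 (permutation adjusted p = 0.179). The call was lost in 12 of 31 alternatives, which include leaving out X2, X4, X9, X21, X25L, X29.2 or X32 (permutation adjusted p from 0.052 to 0.0617), quantile normalization (0.0617) and a floor at the 20th percentile (0.0638).

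Fabp4 had an r of 0.72 with the adipocyte score (permutation p = 0.00594, adjusted p = 0.0413) and a rho of 0.43 (permutation adjusted p = 0.212). Without the 2 farthest tumours r was 0.42, and without X15 it was 0.31 (permutation adjusted p = 0.335). The call was lost in 9 of 31 alternatives, also without X4, X9, X21, X25L, X29.2 or X32, where r stayed at 0.71 to 0.73 (permutation adjusted p from 0.053 to 0.0617), under quantile normalization (0.0617) and with a floor at the 20th percentile (0.0638). X15 had the highest adipocyte sum of the tumours, 3206, and also the highest endothelial sum, 3084. Cd36 and the adipocyte score had an r of 0.62 and a rho of 0.27 (permutation p = 0.0137, adjusted p = 0.0503 for r), and without X15 an r of 0.05. Without X22L it passed, with an r of 0.68 (permutation adjusted p = 0.0397), as it did in 8 of 31 alternatives in all. Fabp4 and the endothelium score had an r of 0.49 that did not pass (permutation adjusted p = 0.0503) and 0.53 without X22L, which did (permutation adjusted p = 0.0397), as in 7 of 31 alternatives in all. The counts of 8 and of 7 each hold the fit without X22L 2 times.

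Fabp3 followed the milk score, with an r of 0.62 (permutation p = 0.00111, adjusted p = 0.0133), a rho of 0.53 (permutation p = 0.00773, adjusted p = 0.0928) and an r of 0.44 without the 2 tumours farthest from the median. Without X22L the r was 0.52 (permutation adjusted p = 0.0397). The tumour with the most Fabp3, X6, had a milk sum of 23445, while the 2 tumours with the least, X22L and X26, had milk sums of 2904 and 4568. X20 had the lowest milk sum, 2565, with a Fabp3 signal of 224. With the luminal score Fabp3 had an r of 0.51 that did not pass (permutation p = 0.0113, adjusted p = 0.0503), and without X22L it was 0.24. It passed in 9 of 31 alternatives, among them without X6 (r = 0.54, permutation adjusted p = 0.0383). Fabp5 passed with none of the 6 scores. The closest was cell division, with an r of 0.38 (permutation p = 0.0667, adjusted p = 0.2).

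**Figure D4:**
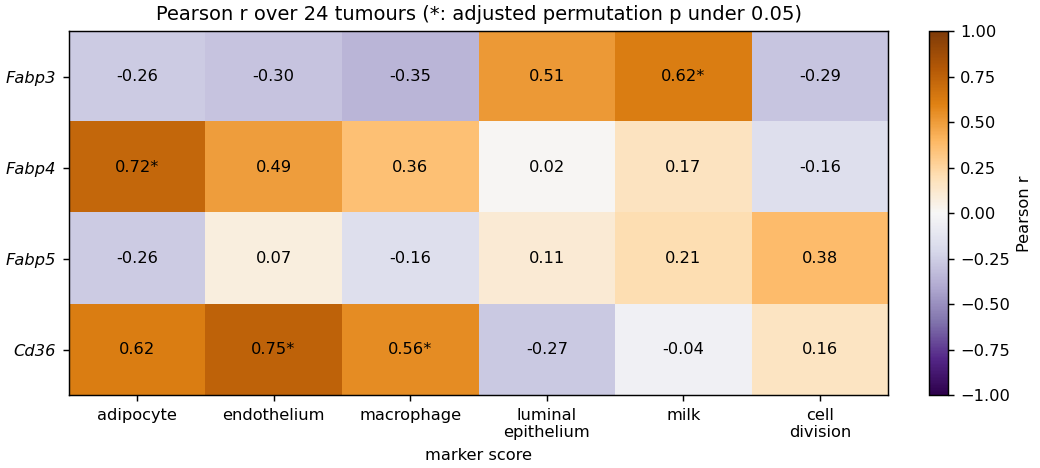
Pearson r over the 24 tumours between each member's log2 signal (rows) and 6 marker scores (columns), coloured from -1 to 1, with a star where the permutation p adjusted over the 24 relations was under 0.05. The 4 starred cells are Cd36 with endothelium (0.75) and macrophage (0.56), Fabp4 with adipocyte (0.72) and Fabp3 with milk (0.62).

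Between tumours and normal glands these marker lists moved in different ways. Of 9 adipocyte genes 8 fell and 0 rose (1 rose without any one of NewN3, X28.1N, X6, X25R or X32), with a median log2 change of -4.10, led by Cfd (adipsin, -6.10) and Pnpla2 (adipose triglyceride lipase, -4.65). Their summed signal did not overlap, at 6739 to 20094 in the normal glands and 675 to 3206 in the tumours, and Lep (leptin) was at the floor in all tumours. Of 10 endothelial genes 8 fell and 0 rose (1 rose without Young or without X26), with a median of -0.81 and sums of 2988 to 4400 and 1422 to 3084, led by Kdr (the VEGF receptor, -1.72). Of 9 macrophage genes 6 fell and 1 rose, with a median of -0.70 and sums of 7010 to 11378 and 3045 to 13380. Of 7 brown adipocyte genes 4 rose and 1 fell, the latter being Cidea (-3.19). Of the 4, Ucp1, Ppargc1a and Cox7a1 had mean signals near the floor. These were 34.6, 46.2 and 52.3 in the normal glands and 47.5, 68.6 and 70.4 in the tumours. The other, Zic1, had 106 and 131. Cox7a1 was not called with a floor at the 20th percentile, nor Zic1 under quantile normalization. Of 8 milk genes 1 fell and 0 rose, or 1 fell and 1 rose without X22L, and 2 fell without X2. Over all 10411 genes 31.4% rose, 27.5% fell and the median was 0.02. The part of these cell types in the falls of Fabp4 and Cd36 was not tested.

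Epithelial and division markers complete the background of the tumours. Of 8 basal epithelial genes 4 fell and 0 rose, or 2 rose without X22L (sums of 4423 to 12544 in the normal glands and 991 to 15740 in the tumours), of 7 squamous genes 2 rose and 1 fell, or 4 rose and 0 fell without NewN4 and 4 rose without X27.1N (642 to 4978 and 674 to 2763), and of 13 cell division genes all rose (1778 to 4212 and 2759 to 6410).

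The rest of the fatty acid route was read from 6 lists that leave the members out. Of 10 other genes of the intracellular lipid-binding family, 4 rose, 1 fell and 5 were not called, with a median log2 change of 0.14, and without X10 2 fell. Crabp2, a retinoic acid carrier, had a mean signal of 230 ± 69.1 in the 11 normal glands and 687 ± 270 in the 24 tumours (SD), and rose by 1.54 on the log2 scale (SE 0.18). Rbp7, a retinol carrier found in adipose tissue and its vessels, fell by 2.19 on the log2 scale (SE 0.38), while Crabp1 had -0.38 (SE 0.24, limma adjusted p = 0.175). Rbp7 was at the floor in 12 tumours, so the size of its fall depends on the floor. Fabp6, the ileal bile acid carrier, rose by 0.64 (SE 0.10) and Fabp1, the liver form, by 0.29 (SE 0.07). Fabp1 did not pass under quantile normalization. Fabp2, Fabp7 and Fabp9 were at the floor in all normal glands.

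Of 14 measured genes of fatty acid delivery and uptake, 7 fell and 5 rose, with a median of -0.36. Lpl, the lipase that frees fatty acids from circulating lipoproteins, fell by 3.93 (SE 0.37), its inhibitor Angptl4 fell by 2.79 (SE 0.29), and the caveolins Cav1 and Cav2 had log2 changes of -2.59 (SE 0.28) and -2.36 (SE 0.22). Of 5 relatives of CD36, other scavenger receptors and thrombospondins, 2 fell and 1 rose, with a median of 0.01. Scarb1, the receptor of high-density lipoprotein, fell by 1.66 (SE 0.18), Stab1, a scavenger receptor of macrophages and sinusoidal endothelium, fell by 2.41 (SE 0.26) and the lysosomal Scarb2 rose by 0.42 (SE 0.12). Stab1 was at the floor in 13 tumours, so the size of its fall depends on the floor.

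Inside the cell, Acsl1, the acyl-CoA synthetase of adipocytes and muscle, fell by 4.39 (SE 0.18). In its list of 16, 8 fell and 3 rose, with a median of -0.19. Dbi, the acyl-CoA binding protein, fell by 1.09 (SE 0.18), whereas Acot1 and Acsl6 rose by 0.80 (SE 0.13) and 0.78 (SE 0.11). Acot1 and Acsl6 had low mean signals, 53.0 and 58.5 in the normal glands and 94.0 and 102 in the tumours. Acsl5 had 0.09 (limma adjusted p = 0.316) and passed as higher under quantile and 75th-percentile scaling. Of 14 genes of lipid store and release 12 fell and 0 rose, with a median of -1.85. The triglyceride lipase Pnpla2, the droplet protein Plin4, the hormone-sensitive lipase Lipe, the droplet protein Plin1 and the triglyceride synthase Dgat2 fell, with log2 changes of -4.65, -4.52, -4.24, -4.11 and -3.92, while Plin2, the droplet coat protein found in most cells, had 0.03 (SE 0.22, limma adjusted p = 0.929). Plin1 was at the floor in 20 of the 24 tumours, Plin4 in 15, Pnpla2 in 10 and Lipe in 1, so these sizes and their order depend on the floor. Plin1, Lipe and Pnpla2 are also in the adipocyte list.

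Of 14 nuclear receptors and factors of fat genes, 8 fell and 3 rose, with a median of -0.36. Pparg, the receptor known to drive Fabp4 and Cd36, had a mean signal of 837 ± 398 in the 11 normal glands and 47.5 ± 27.3 in the 24 tumours (SD), and its log2 change was -3.96 (SE 0.18, limma adjusted p = 1.07e-19). Nr1h3 (LXR alpha), Klf15, Cebpa and Srebf1 fell, with log2 changes of -2.43, -1.53, -1.40 and -0.81, and Cebpb rose by 0.30 (SE 0.09). Pparg was at the floor in 13 tumours and Nr1h3 in 15, so the sizes of these 2 falls depend on the floor.

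**Figure D5:**
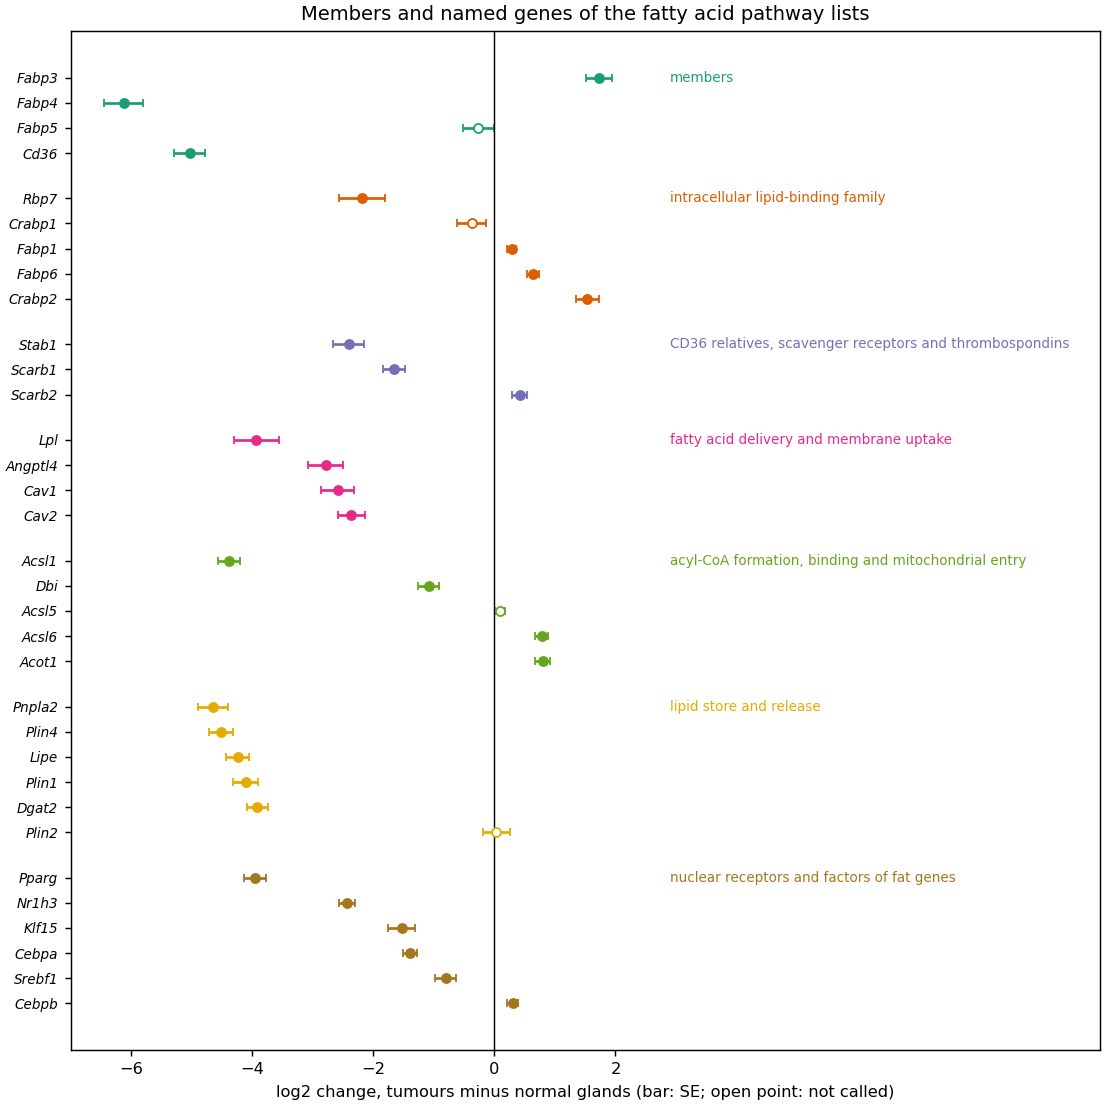
Log2 change (tumours minus normal glands, horizontal axis) of the members and of the named genes of the 6 fatty acid lists, with bars for the SE and open points for genes that were not called. Fabp4 (-6.13) and Cd36 (-5.03) lie furthest left and Fabp3 (1.73) furthest right of the genes drawn.

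The genes whose signal was most like each member's over the 24 tumours, by Pearson r among 10018 genes, are given as a description. The points share their arrays, and X15 is the highest tumour for both Fabp4 and Cd36. Cd36 was above the floor in only 8 of the 24 tumours and Fabp4 in 10, so most of their points are ties at the floor. For Cd36 the closest were Pparg (0.87), Meox2, a homeobox factor (0.81), Ccr2, a chemokine receptor of monocytes (0.80), Fcgr2b, an inhibitory antibody receptor (0.78), and Fads3 (0.78). Of these, Pparg was above the floor in 11 tumours, Meox2 in 12, Ccr2 and Fcgr2b in 7 each, and Fads3 in 21. For Fabp4 they were Aoc3, an amine oxidase abundant in fat (0.86), Car3, a carbonic anhydrase (0.83), Cfd (0.82), Ces1d (0.79) and Sncg (0.75), each lower in tumours, with log2 changes from -6.10 (Cfd) to -4.77 (Sncg).

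For Fabp3 the closest were Fgf1, a fibroblast growth factor (0.76, itself 1.58 higher in tumours on the log2 scale), the ribosomal protein gene Rps9 (0.71), the elongation factor Eef2 (0.70), Cnpy2 (0.70) and Rcc2 (0.69). For Fabp5 they were Psat1, an enzyme of serine synthesis (0.74), the metallothioneins Mt1 (0.71) and Mt2A (0.69), Nop58 (0.69) and Glrx3 (0.66). Over the 11 normal glands, among 9632 genes, the closest were Cryab, Ufc1 and Ldb3 for Fabp3 (0.91, 0.90 and 0.86), Cd36, Anxa5 and Plin4 for Fabp4 (0.98 each), Polr1c, Casp6 and the glucose transporter Slc2a1 for Fabp5 (0.92, 0.90 and 0.87), and Cav2, Bnip3 and Tns1 for Cd36 (0.99, 0.99 and 0.98).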

How the data were processed

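The deposited table holds intensities on a linear scale, 1 per probe set and array. The lowest was 1, held by 3601 values. How the authors corrected background and scaled arrays, and with what software, is not given in the sources used here. Of 15923 probe sets, 57 controls were left out. Signals were raised to a floor of 41.61 (10th percentile) and log2 was taken. Symbols came from the platform annotation: 12783 probe sets have 1 symbol, 312 several and 2771 none, and 12748 matched RefSeq (GRCr8) by Entrez identifier. For each gene the probe set with the highest mean was used.

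Groups came from the sample labels. All 35 arrays and 15866 probe sets were fitted with limma 3.58.1 in R 4.3.3 (lmFit, eBayes with trend and robust estimation), no covariate, with Benjamini-Hochberg adjustment. Member pairs and relations were tested by 100000 two-sided permutations in Python 3.11.15, exactly where few arrangements exist. On simulated data for this comparison, changes were put into a small part of 15866 probe sets, all far above the floor in normal glands. Of these changes, 70% of 1.5-fold, 94% of 2-fold and 100% of 4-fold ones were recovered, and 0.0447% of unchanged probe sets were called. The noise was drawn independently for each value. These rates therefore need not hold for the real arrays, or for probe sets nearer the floor such as that of Fabp3. No pair of arrays correlated above 0.987, so none was deposited in duplicate. The number of arrays limits the precision.

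Members and lists were chosen with earlier results of these data known. Named are the members, up to 4 called genes of each list with the largest change and up to 2 with the highest mean signal, and for each member the 5 genes most alike over tumours and the 3 over normal glands, among genes above the floor in at least 6 arrays of the group. A few further list members named for a count of 1 to 3 were chosen after their values were seen. Alternatives covered the floor, an offset of 16, scaling, dim probe sets, spread model, array weights, blocks, the normal glands used, tumours sharing a title number, X22L, the probe set of a gene, and leaving out each array. The fit without X22L entered both by its title and as 1 array left out, so counts of alternatives hold it 2 times. The relation within the 8 NewN glands was added after the data were seen.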

Additional observations from a re-analysis of the deposited data

Results flagged for a closer look

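Fabp5 in the gland titled NewN4 was 1936, far above the other NewN glands, which lay between 926 (NewN1) and 1232 (NewN5). On the log2 scale the gap to the nearest was 0.612 of the range of the 8 NewN glands, beyond Dixon's 95% critical value, which chance passes in about 1 in 20 groups. NewN4 also had the highest summed milk signal of the normal glands, 31844.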

How the results depend on the processing

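All 4 members kept their direction and their side of the threshold under every alternative run, 51 each and 50 for Cd36, which was left out with the dimmer probe sets. The log2 change ranged from 1.58 to 1.85 for Fabp3, -6.45 to -5.62 for Fabp4, -0.35 to -0.01 for Fabp5 and -5.47 to -4.50 for Cd36. The floor limits the size for Fabp4 and Cd36. Deviations of glands and tumours with the same title number correlated by -0.172 to 0.0933 for 4 NewN glands, by 0.186 for X27.1N with X27 (5th highest of 24 tumours) and by 0.251 for X28.1N with X28 (2nd highest), so the numbers as a whole did not meet the criterion for pairing, and the labels do not settle it for 27 and 28. With a replicate block on the numbers 27 and 28 Fabp3 had 1.72, Fabp4 -6.17, Fabp5 -0.34 and Cd36 -5.03, no member's call changed, and 9545 probe sets were called.

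Scaling to the 75th percentile moved the median log2 change over probe sets from 0.04 to 0.15 and gave 6921 higher and 2924 lower calls (70.3% higher, against 56.7%). With the dimmer probe sets left out 4750 were called, 2077 higher, and over the lists 27 genes rose and 45 fell (fewer features were tested). Against the 3 glands not titled NewN 2658 were called, 1073 higher, with 12 list genes higher. Against X27.1N and X28.1N these were 1366, 439 and 9, with 41 list genes lower, and Fabp4 minus Cd36 became -1.02 (permutation adjusted p = 0.0738); fewer samples were fitted. NewN glands against the others, never called, turned under quantile normalization (Fabp4 -0.060, Cd36 -0.032) and 75th-percentile scaling (Fabp4 -0.053, Cd36 -0.081), and leaving out each array gave -0.389 to 0.338 for Fabp4, -0.051 to 0.567 for Fabp5 and -0.432 to 0.382 for Cd36. The number of score relations called, 4, was 2 under quantile normalization, 8 without X22L and 2 to 8 leaving out each tumour. Not all of the 8 are named here, and the cause was not tested. Relations between members called numbered 0 to 1 over the tumours and 1 to 3 over the normal glands when each array was left out, and 1 in the NewN glands alone.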

Other observations

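Fabp4 and Fabp5 are neighbours on rat chromosome 2 in RefSeq, with Fabp9 and Pmp2 between them and Fabp12 on the other side of Fabp4. Fabp9, a testis form, was at or below the floor in all 11 normal glands and in 23 tumours. Fabp12 had a signal of 40.2 to 79.7 in the normal glands and 42.9 to 91.9 in the tumours, a log2 change of 0.21 (SE 0.10, limma adjusted p = 0.0747). Of the 4 genes of this row that were read, Fabp4 was called, and Fabp5, Fabp9 and Fabp12 were not.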
